A study of Mus musculus with 80 samples.

Results

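Liver and kidney of wild-type mice were set against each other on 16 of the 80 arrays of a study of mice that lack serum carboxylesterase (the Es-1 knockout, in which the liver's secreted esterase Ces1c is the targeted gene). The 16 arrays were chosen by label alone, as the 8 WT livers and the 8 WT kidneys, and each liver was paired with the kidney of the animal that carries the same number. The animals were 4 females and 4 males on a C57BL/6 background, fed chow, and left untreated, and their age is not given here. The WT brain, heart and lung arrays (8 each) served to tell which genes liver and kidney hold in common against other organs, and 8 Es-1 KO livers with the 8 kidneys of the same KO animals served as a second, separate set of animals. RNA of whole frozen tissue was read on Affymetrix HT MG-430 PM arrays, 1 array a sample, and values are given as log2 expression throughout. One probe set stood for each of 17097 genes, the one with the highest mean over all 80 arrays.

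Liver and kidney are both built largely of polarised epithelial cells that clear the blood. Hepatocytes make the plasma proteins, urea and bile acids, and oxidise and conjugate foreign compounds. The proximal tubule of the kidney takes back sugars, amino acids, phosphate and filtered proteins through sodium-coupled carriers, and later segments adjust salt, water and acid. Both organs make glucose, break down amino acids and carry carriers for organic anions, and both rely on the nuclear factors HNF1 and HNF4. Many of these functions are held by families of paralogs, genes copied from a common ancestor that differ in the organ where they are used.

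The labels held up against markers of the hepatocyte and of the nephron. The mean of 11 hepatocyte genes, among them albumin (Alb) and fibrinogen beta (Fgb), lay between 12.64 and 12.80 in the livers and between 5.37 and 6.75 in the kidneys. The mean of 17 proximal tubule genes lay between 10.36 and 11.05 in the kidneys and between 4.45 and 4.80 in the livers. Genes of the thick ascending limb (10 of 10), distal convoluted tubule (8 of 8) and collecting duct (16 of 16) were all higher in kidney, as were 6 of 7 podocyte genes. The list of cholangiocytes, a cell type of liver, ran the other way. Its mean over 5 genes lay between 3.89 and 4.24 in the livers and between 6.37 and 6.89 in the kidneys. Of these 5 genes 4 were higher in kidney and 0 higher in liver. Their mean was higher still in lung, 7.65 to 8.01. Some arrays had raised means for marker genes of another tissue, and the source of these transcripts was not tested. The kidney of female 1264 had the highest hepatocyte mean, 6.75 against 6.19 in the next kidney, and the kidney of female 1265 had an adrenal cortex mean of 7.62 against at most 3.87 in the others. The livers of male 1262, female 1264 and female 876 had pancreatic acinar means of 9.29, 8.84 and 8.03 against at most 4.49 in the other 5 livers. Adipose genes varied between 5.81 and 8.34 in the kidneys, and the heart of male 903 had a hepatocyte mean of 9.25 against at most 4.88 in the other hearts. Leaving out each animal in turn, or that heart, moved no count of liver against kidney given here by as much as 1.5 times. The same held for the shared and divided genes, while counts of sex differences did move that far. Several livers had high pancreatic acinar means, so leaving out 1 animal did not remove those transcripts. Of 10 pancreatic acinar genes 9 were higher in liver and 1 higher in kidney, against 7.5% and 12.7% of all genes. Among the liver only genes counted below were 9 of these 10.

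**Figure D1:**
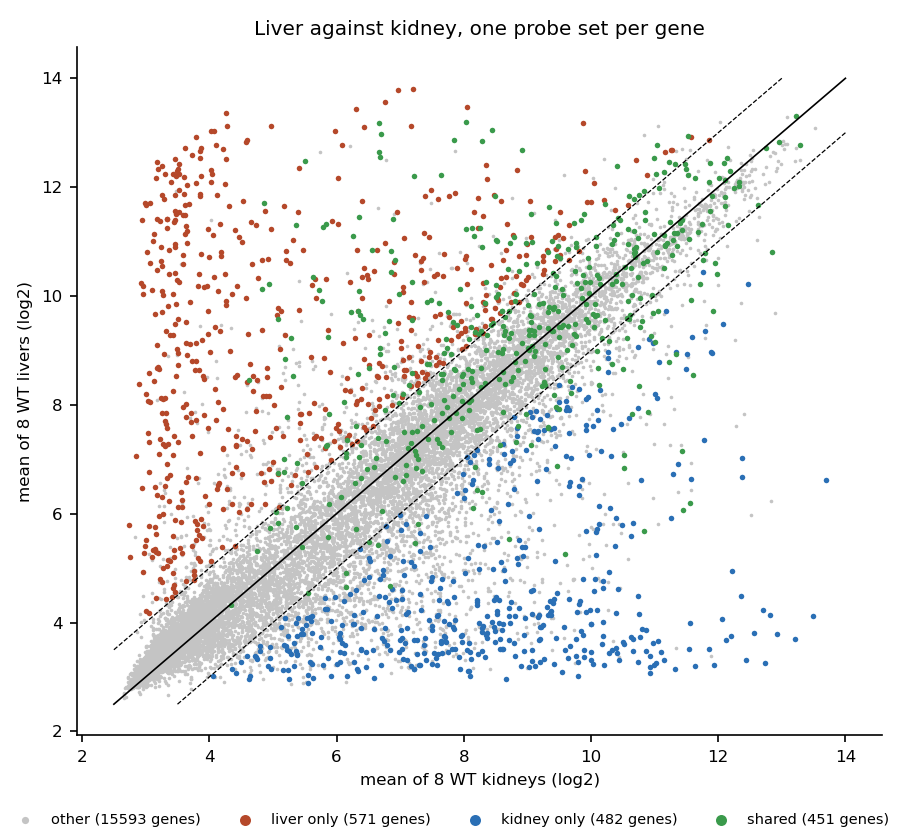
Mean log2 value of each gene in the 8 WT kidneys (horizontal) and the 8 WT livers (vertical), with the line of equality and dashed lines at a difference of 1. The 451 shared genes lie near the diagonal or to either side of it, the 571 liver only genes above it and the 482 kidney only genes below it.

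Most genes differed between the organs, and more of the 2-fold differences ran toward kidney. By limma with the animal as a block, 10478 genes (61.3%) had an adjusted p under 0.05. A gene is called here where its difference also reached 1 log2 unit, which is 2-fold. That gave 3459 genes (20.2%), of which 1282 (7.5%) were higher in liver and 2177 (12.7%) higher in kidney. The split turned round among the largest differences. At least 64-fold, or 6 log2 units, was reached by 141 genes toward liver and 76 toward kidney, and the median over all genes was 0.054. For 5075 genes (29.7%) the ranges of the 8 livers and the 8 kidneys did not overlap. In 327 of the liver calls the kidney mean, and in 570 of the kidney calls the liver mean, lay under 4.04, the average of the array medians. Differences against such dim values are given as log2 differences and not read as ratios of transcripts. Means below are mean ± SD over the 8 arrays of an organ, and differences are liver minus kidney ± SE from the paired fit. In RNA of whole tissue, fewer cells of a type cannot be told apart from less RNA per cell.

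The 12 largest differences toward liver were held by secreted plasma proteins and enzymes of nitrogen and drug metabolism. Apolipoprotein F (Apof), which inhibits cholesteryl ester transfer, ranged from 12.15 to 12.62 in the livers (median 12.51) and from 2.89 to 4.03 in the kidneys (median 3.01). Its difference of 9.27 ± 0.12 was the largest toward liver (adjusted p = 8.93e-14). Tryptophan dioxygenase (Tdo2), the first enzyme of tryptophan breakdown, ranged from 12.02 to 12.60 in the livers (median 12.34) and from 2.88 to 4.02 in the kidneys (median 3.12). Both genes were far apart in all animals, with no liver near any kidney. Plasminogen (Plg), the precursor of plasmin, differed by 9.13 ± 0.16, and apolipoprotein A-I (Apoa1), the core protein of HDL, by 9.09 ± 0.29. The carriers Ambp (9.09 ± 0.19) and hemopexin (Hpx, 8.97 ± 0.18) were of the same size. Urate oxidase (Uox), which turns urate into allantoin in mice, differed by 9.06 ± 0.15. Methionine adenosyltransferase Mat1a, which makes S-adenosylmethionine, differed by 9.01 ± 0.12, and ornithine transcarbamylase (Otc) of the urea cycle by 8.93 ± 0.09. The cytochrome P450 Cyp3a11 (9.01 ± 0.30) and the carboxylesterases Ces3b (9.13 ± 0.10) and Ces1c (8.90 ± 0.19) completed the group. Ces1c itself ranged from 12.11 to 12.63 in the livers (median 12.48) and from 3.16 to 5.21 in the kidneys (median 3.27). For 6 of these genes (Tdo2, Ambp, Uox, Mat1a, Hpx and Ces1c) the kidney of female 1264, which has the highest hepatocyte mean, stood apart above the other kidneys. The part of that array in the kidney values was not tested, but its liver and kidney were still 12.63 and 5.21 for Ces1c.

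The 12 largest differences toward kidney came from several stretches of the nephron. Tissue kallikrein (Klk1), a kinin-releasing protease of the connecting tubule, ranged from 2.80 to 5.86 in the livers (median 3.13) and from 13.07 to 13.51 in the kidneys (median 13.19) and gave the largest difference, -9.51 ± 0.32 (adjusted p = 2.88e-10). The highest liver values of Klk1, 5.86, 4.86 and 3.98, were in male 1262, female 1264 and female 876, the livers with high pancreatic acinar genes, and the part of pancreas in them was not tested. Uromodulin (Umod), the main protein of urine, ranged from 3.07 to 3.46 in the livers (median 3.26) and from 12.34 to 12.97 in the kidneys (median 12.77), a difference of -9.49 ± 0.09. The sodium, potassium and chloride carrier Slc12a1, the target of loop diuretics, shares the thick ascending limb with uromodulin and differed by -8.72 ± 0.12. From the proximal tubule came the kidney androgen-regulated protein Kap (-9.37 ± 0.09), the inositol oxygenase Miox (-9.13 ± 0.09), the amino acid carrier partner collectrin (Cltrn, -9.12 ± 0.07) and the acyl-CoA ligase Acsm2 (-8.66 ± 0.17). Calbindin (Calb1), the calcium-binding protein of the distal tubule, differed by -8.50 ± 0.13 but stood at 11.53 in brain, so it was not a kidney only gene. The sodium pump subunit Fxyd2 (-8.49 ± 0.10), the steroid dehydrogenase Hsd3b4 (-8.77 ± 0.16), the trypsin inhibitor Spink1 (-8.45 ± 0.12) and the nuclease Dnase1 (-8.45 ± 0.16) made up the rest. No liver reached any kidney for any of these 12 genes.

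Genes that liver and kidney share were found against the other organs. A gene is called shared where liver and kidney each exceeded each of brain, heart and lung by at least 1 log2 unit with all 6 adjusted p under 0.05. That held for 451 genes (2.64%). Liver only genes (above the other 4 organs and not shared) numbered 571 (3.34%), and kidney only genes 482 (2.82%). Of the shared genes, 245 differed by under 2-fold between the 2 organs, 144 were called higher in liver and 61 higher in kidney, and 1 (Acsm3) passed 2-fold without passing the test. For 228 of them the smallest of the 6 gaps was at least 2 log2 units.

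The 12 genes with the largest smallest gap, among shared genes that differed by under 2-fold, include 3 of glucose output (Fbp1, G6pc and Slc2a2) and the nuclear receptor Hnf4a. Fructose bisphosphatase 1 (Fbp1), a committed step of glucose production, ranged from 12.63 to 12.99 in the livers (median 12.85) and from 12.79 to 13.06 in the kidneys (median 12.99), and its smallest gap over brain, heart and lung was 8.68. The livers and kidneys overlapped. Glucose 6-phosphatase (G6pc), which releases free glucose, ranged from 10.06 to 11.50 in the livers (median 10.83) and from 10.69 to 11.47 in the kidneys (median 10.96), with a smallest gap of 7.03. The liver-type glucose carrier Slc2a2, through which that glucose leaves the cell, stood at 11.54 ± 0.18 in liver and 10.85 ± 0.18 in kidney. These 3 steps of glucose output stood at 3.34, 3.59 and 3.48 in brain. The gap of under 2-fold between the organs and the height above brain are how these genes were chosen, not a separate result. Glycine N-acyltransferase (Glyat), which joins benzoate to glycine, was 11.65 ± 0.21 in liver and 12.11 ± 0.22 in kidney. The fatty acid hydroxylases Cyp4a10 and Cyp2j5 were 11.04 ± 0.91 in liver and 11.28 ± 0.29 in kidney, and 11.31 ± 0.14 in liver and 12.16 ± 0.20 in kidney. Cyp4a10 varied more among livers than any other of these 12 genes, from 9.34 to 12.23 (median 11.25). Homogentisate dioxygenase (Hgd) of tyrosine breakdown was 12.18 ± 0.12 in liver and 11.64 ± 0.08 in kidney, and the aldehyde dehydrogenase Aldh8a1 was 11.06 ± 0.16 in liver and 10.74 ± 0.26 in kidney. The acyl-CoA synthetase Slc27a2 was 12.78 ± 0.14 in liver and 13.29 ± 0.13 in kidney. The glycosyltransferase Ugt3a2 was the least even of the 12, 11.67 ± 0.07 in liver and 12.63 ± 0.18 in kidney. The ranges of the organs did not overlap for Ugt3a2, nor for Slc2a2, Hgd, Slc27a2 and Cyp2j5. Coagulation factor XIII B (F13b), best known as a plasma protein, was 11.03 ± 0.19 in liver and 10.37 ± 0.31 in kidney. The nuclear receptor Hnf4a, which drives many hepatocyte and proximal tubule genes, was 10.93 ± 0.17 in liver and 11.17 ± 0.19 in kidney and had a smallest gap of 6.76. Its paralog Hnf4g was dim in both organs, 3.23 ± 0.11 in liver and 3.48 ± 0.26 in kidney.

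The letters of an HNF1 site were looked for near the starts of these genes, since HNF1 is a factor both organs use. RefSeq promoter sequence (mouse build GRCm38.p6) was at hand for 13605 of the measured genes, and the window searched was the 250 bases before the start. The letters GTTAATNAT, the core of an HNF1 site read on both strands, stood in a window of 94 of them (0.691%). They stood in windows of 17 of 375 shared genes (4.53%), of 13 of 447 liver only genes (2.91%) and of 8 of 373 kidney only genes (2.14%). The letters CAAAGTCCA of an HNF4 site, searched in the same way and overlapping 0 matches of the first motif, stood in 0.522% of all genes, 1.33% of shared, 2.01% of liver only and 1.34% of kidney only genes. These shares describe letters in a window and are not binding sites. The liver only genes with the HNF4 letters include Cela2a, a pancreatic elastase. The 250 bases before the start of 5 genes with the HNF1 letters are given 5′ to 3′ on the gene's strand, with the matching letters in capitals. F13b (chr1:139501457-139501706, plus strand) and G6pc (chr11:101367466-101367715, plus strand) are named above among these 12, and Pcbd1 (chr10:61089081-61089330, plus strand) is a shared gene whose protein both recycles the cofactor of phenylalanine hydroxylase and binds HNF1. C4bp (chr1:130661619-130661868, minus strand), the complement regulator, stands for the liver only genes, and Cltrn (chrX:164089937-164090186, plus strand) for the kidney only genes.
F13b: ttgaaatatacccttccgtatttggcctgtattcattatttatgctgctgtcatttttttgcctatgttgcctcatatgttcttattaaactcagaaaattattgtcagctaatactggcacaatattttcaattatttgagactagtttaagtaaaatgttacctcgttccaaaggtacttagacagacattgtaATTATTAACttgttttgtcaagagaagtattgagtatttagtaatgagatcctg
G6pc: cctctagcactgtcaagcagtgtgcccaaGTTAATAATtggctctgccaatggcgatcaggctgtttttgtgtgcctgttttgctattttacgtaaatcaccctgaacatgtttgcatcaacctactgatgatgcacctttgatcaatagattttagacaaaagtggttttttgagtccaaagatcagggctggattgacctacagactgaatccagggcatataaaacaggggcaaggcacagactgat
Pcbd1: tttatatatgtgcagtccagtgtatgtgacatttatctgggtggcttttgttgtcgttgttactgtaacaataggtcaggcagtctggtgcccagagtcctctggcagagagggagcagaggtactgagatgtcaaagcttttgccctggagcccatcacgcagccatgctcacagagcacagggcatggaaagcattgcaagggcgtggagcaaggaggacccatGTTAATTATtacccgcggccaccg
C4bp: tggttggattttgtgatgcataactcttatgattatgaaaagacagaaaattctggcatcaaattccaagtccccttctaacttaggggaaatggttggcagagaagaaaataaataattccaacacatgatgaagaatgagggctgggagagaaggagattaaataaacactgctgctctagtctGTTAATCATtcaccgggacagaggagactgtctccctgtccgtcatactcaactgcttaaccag
Cltrn: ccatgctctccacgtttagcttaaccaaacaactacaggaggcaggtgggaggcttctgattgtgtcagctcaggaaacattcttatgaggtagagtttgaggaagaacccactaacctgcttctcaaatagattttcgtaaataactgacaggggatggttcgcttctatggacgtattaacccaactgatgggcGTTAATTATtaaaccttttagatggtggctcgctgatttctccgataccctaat
The match began 54 bases before the start in F13b, 221 in G6pc, 24 in Pcbd1, 64 in C4bp and 54 in Cltrn. Pcbd1 was 12.17 ± 0.14 in liver and 12.02 ± 0.08 in kidney, C4bp was 11.24 ± 0.30 in liver and 3.34 ± 0.16 in kidney, and Cltrn was 3.32 ± 0.08 in liver and 12.43 ± 0.12 in kidney. The other shared genes with the letters include the bile acid carrier Slc10a2, the glycerate kinase Glyctk, the hydroxyproline dehydrogenase Prodh2 and the glucuronosyltransferase Ugt1a9.

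Most families of paralogs had members on both sides. Each family was a written list of genes, which need not hold every member of the family. Of 55 families with at least 2 measured members, 32 had a member called higher in liver and another called higher in kidney. In 11 families calls ran only toward liver, in 11 only toward kidney, and 1 family had no call. Enzymes and carriers leaned opposite ways. Of 205 genes in enzyme and other families, 97 (47.3%) were higher in liver and 33 (16.1%) higher in kidney, with a median difference of 0.81. Of 172 genes in transporter families, 33 (19.2%) were higher in liver and 76 (44.2%) higher in kidney, with a median of -0.54. Over all genes these shares were 7.5% and 12.7%, and the median 0.05. Of 26 listed paralog pairs 20 had both members measured, and in 9 of these one member was called toward each organ.

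**Figure D2:**
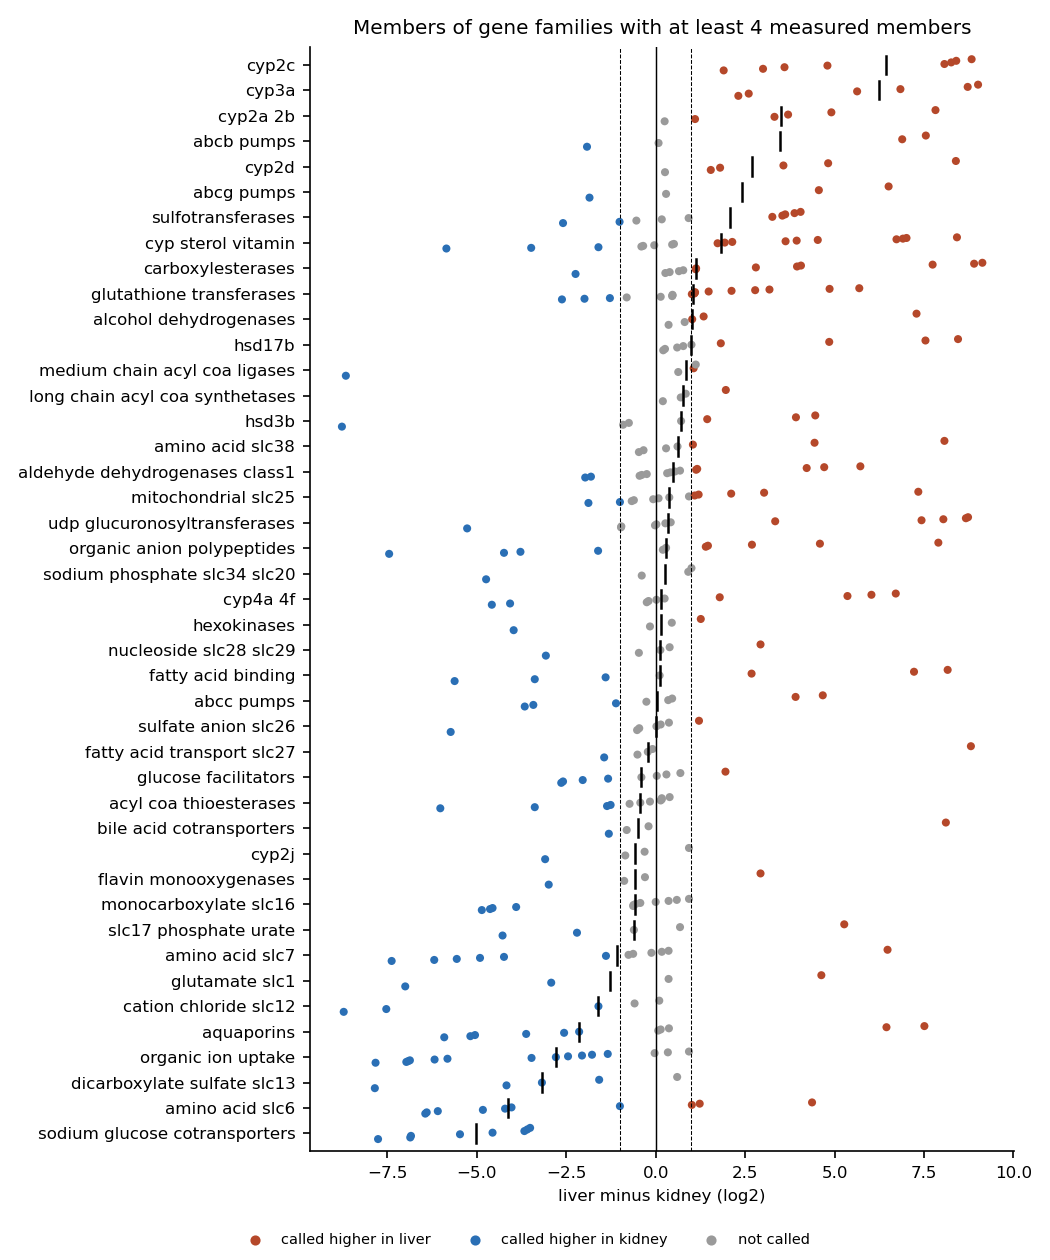
Liver minus kidney difference (log2) of each measured member of gene families with at least 4 measured members, one row a family, with a black tick at the family's median and dashed lines at a difference of 1. The Cyp2c and Cyp3a members all lie toward liver, and all 8 measured genes of the sodium glucose cotransporter list lie toward kidney. Families such as the aquaporins and UDP-glucuronosyltransferases have members at both ends.

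The carriers for sugars set the uptake side of the kidney apart while the exit carrier was common. All 8 Slc5 genes that were listed and measured were kidney only genes, against 2.82% of all genes. Slc5a2, the carrier that reclaims most filtered glucose, ranged from 4.21 to 5.01 in the livers (median 4.57) and from 9.22 to 10.42 in the kidneys (median 10.11), and Slc5a1, its high-affinity relative, differed by -4.56 ± 0.11. The lactate carrier Slc5a12 differed most, -7.76 ± 0.14, followed by the mannose carrier Slc5a10, -6.86 ± 0.10, and the monocarboxylate carrier Slc5a8, -6.84 ± 0.25. Of 9 facilitative carriers, 1 was called toward liver and 4 toward kidney, against 7.5% and 12.7% of all genes. The urate carrier Slc2a9 differed by 1.95 ± 0.08 and the fructose carrier Slc2a5 by -2.04 ± 0.29, and both were shared genes. The red cell and brain type carrier Slc2a1 was 6.17 ± 0.56 in liver and 8.77 ± 0.39 in kidney. The insulin-dependent carrier Slc2a4 was 4.54 ± 0.37 in liver and 7.18 ± 0.28 in kidney, in kidneys whose adipose gene means varied between 5.81 and 8.34, and the part of fat in it was not tested.

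Organic ion carriers of the Slc22 family stood on the kidney's side. Of 15 members that were listed and measured, 12 were higher in kidney and 0 higher in liver, against 12.7% and 7.5% of all genes. The organic anion transporters Slc22a6 and Slc22a8, which load drugs and urate into the proximal tubule, were 3.53 ± 0.10 in liver and 10.40 ± 0.85 in kidney, and 3.31 ± 0.22 in liver and 11.14 ± 0.29 in kidney. The cation transporter Slc22a2 differed by -6.92 ± 0.17 and the urate transporter Slc22a12 by -5.82 ± 0.24. Slc22a7, an anion transporter known from both organs, was a shared gene at 8.79 ± 0.96 in liver and 11.23 ± 0.20 in kidney. The carnitine transporter Slc22a5 differed by -2.79 ± 0.07. Slc22a27, also shared and with a difference of -1.78 ± 0.18, was 1 of 4 called genes among 1591 with several probe sets for which another probe set was called the opposite way, so its direction is uncertain. The organic anion polypeptides showed a division instead. Slco1b2, which brings bilirubin and statins into hepatocytes, ranged from 11.15 to 12.21 in the livers (median 11.41) and from 3.18 to 4.04 in the kidneys (median 3.57). Slco4c1, a carrier of the tubule's basal side, ranged from 3.17 to 3.76 in the livers (median 3.48) and from 6.06 to 8.47 in the kidneys (median 7.96). Slco1a4 (4.59 ± 0.15) went with liver, and Slco1a6 (-7.45 ± 0.10) with kidney, although the 2 belong to one subfamily.

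Export pumps divided as well. The bile salt pump Abcb11 and the phospholipid pump Abcb4 of the canalicular membrane were 11.20 ± 0.18 in liver and 3.65 ± 0.12 in kidney, and 10.77 ± 0.15 in liver and 3.88 ± 0.09 in kidney. The sterol pumps Abcg5 and Abcg8, which work as 1 dimer, differed by 6.51 ± 0.10 and 4.56 ± 0.11. Abcc3 and Abcc6 were higher in liver by 3.91 ± 0.59 and 4.67 ± 0.08. Abcc4, which lies in the apical membrane of the proximal tubule, was 4.96 ± 0.98 in liver and 8.63 ± 0.81 in kidney, and the urate and drug pump Abcg2 was 9.15 ± 0.79 in liver and 11.01 ± 0.12 in kidney. Abcc2, an apical pump of both epithelia, was a shared gene at 10.01 ± 0.33 in liver and 9.55 ± 0.49 in kidney, and the proton exchanger Slc47a1 stood at 10.44 ± 0.25 in liver and 11.76 ± 0.38 in kidney. Bile acid uptake followed the same line. Slc10a1, the sodium carrier of the hepatocyte, ranged from 11.29 to 11.93 in the livers (median 11.52) and from 3.25 to 3.71 in the kidneys (median 3.45), and Slc10a2, its apical counterpart in tubule and ileum, ranged from 5.73 to 8.08 in the livers (median 6.98) and from 7.14 to 9.08 in the kidneys (median 8.16). The livers and kidneys overlapped for Slc10a2, whose difference was -1.31 ± 0.37 (adjusted p = 0.0099). In males alone it was -0.17 (limma adjusted p = 0.32), so the Slc10a1 and Slc10a2 pair was not called divided there. The basolateral exporter subunits Slc51a and Slc51b were kidney only genes, with differences of -4.21 ± 0.16 and -3.79 ± 0.10.

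Amino acid carriers of the brush border were kidney genes, and liver held its own set. Of 10 listed members of the Slc6 family 7 were higher in kidney and 3 higher in liver, against 12.7% and 7.5% of all genes. The neutral amino acid carrier Slc6a19 was 3.75 ± 0.18 in liver and 10.19 ± 0.46 in kidney, and the proline carrier Slc6a20b was 3.49 ± 0.30 in liver and 9.89 ± 0.21 in kidney. The creatine carrier Slc6a8 was 5.42 ± 0.58 in liver and 10.24 ± 0.11 in kidney. The betaine carrier Slc6a12 went the other way, 7.96 ± 0.41 in liver and 3.58 ± 0.16 in kidney. In the Slc7 family the cystine carrier Slc7a9 (-7.38 ± 0.12), the lysine and arginine exporter Slc7a7 (-5.56 ± 0.12) and Slc7a8 (-4.24 ± 0.14) were kidney only genes. The cationic amino acid carriers divided. Slc7a2 was 11.66 ± 0.25 in liver and 5.18 ± 0.61 in kidney, and Slc7a1 was 5.35 ± 0.32 in liver and 6.74 ± 0.28 in kidney. The call of Slc7a1 was lost with the mean of its probe sets and with a further quantile normalization (differences of -0.991 and -0.989). Of the Slc38 family, which moves glutamine and alanine, 3 of 7 listed members were called, all toward liver, led by Slc38a4 (8.07 ± 0.10) and Slc38a3 (4.44 ± 0.13). Of the glutamate carriers, Slc1a1 was 3.87 ± 0.18 in liver and 10.87 ± 0.23 in kidney, and Slc1a2 was 8.23 ± 0.37 in liver and 3.60 ± 0.12 in kidney.

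Salt, water, phosphate and acid carriers showed the nephron beside the hepatocyte. The thiazide-sensitive carrier Slc12a3 was 3.39 ± 0.12 in liver and 10.92 ± 0.25 in kidney, and the anion exchanger Slc26a4 of intercalated cells was 3.72 ± 0.25 in liver and 9.45 ± 0.15 in kidney. The phosphate carrier Slc34a3 was 3.99 ± 0.19 in liver and 8.73 ± 0.55 in kidney. Sulfate uptake was held by Slc13a1 in kidney (-7.85 ± 0.12), while the sulfate exchanger Slc26a1 was shared and higher in liver by 1.21 ± 0.14. Aquaporins divided by 2 toward liver to 6 toward kidney among 11, against 7.5% and 12.7% of all genes. Aqp9, the glycerol channel through which the hepatocyte takes up glycerol, was 11.13 ± 0.11 in liver and 3.62 ± 0.16 in kidney, and Aqp8 differed by 6.45 ± 0.18. The water channels Aqp2 and Aqp3 of the collecting duct differed by -5.18 ± 0.13 and -5.05 ± 0.13, and Aqp1 of the proximal tubule by -2.56 ± 0.17. The glycerol channel Aqp7 ranged from 5.25 to 6.04 (median 5.51) in the kidneys and from 3.04 to 3.57 (median 3.41) in the livers. Aqp7 is also a gene of fat, whose marker means varied among these kidneys, and the part of fat was not tested. Aqp11 was shared at 8.41 ± 0.12 in liver and 8.34 ± 0.08 in kidney.

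The cytochromes P450 of drug metabolism were liver genes, with some members kept in both organs. All 8 measured Cyp2c and all 6 measured Cyp3a genes were higher in liver, against 7.5% of all genes. They ran from Cyp3a11 (9.01 ± 0.30) and Cyp2c50 (8.83 ± 0.11) down to Cyp2c39 (1.90 ± 0.39), which was under 2-fold in males alone (0.72). Cyp2c23, an epoxygenase of arachidonic acid, was the 1 shared gene of the Cyp2c family, at 11.26 ± 0.20 in liver and 8.26 ± 0.64 in kidney. Cyp1a2, which oxidises caffeine, was 11.95 ± 0.30 in liver and 3.53 ± 0.18 in kidney. Cyp2e1, the ethanol-inducible form, was shared at 12.77 ± 0.07 in liver and 11.04 ± 1.51 in kidney. In the Cyp4 families Cyp4f14 (6.71 ± 0.10) and Cyp4v3 (5.36 ± 0.19) went with liver, and Cyp4b1 (-4.58 ± 0.53) and Cyp4a31 (-4.07 ± 0.14) with kidney. Members of the Cyp2c, Cyp2d, Cyp3a, Ugt and Hsd3b families are near-identical in places, and of 759 distinct list genes 63 were read by a probe set of the kinds that can match several transcripts, so single members are less certain than their families.

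Conjugating enzymes divided within each family. Among 12 UDP-glucuronosyltransferases, Ugt2b5 (8.73 ± 0.09), Ugt2b1 (8.67 ± 0.16) and Ugt2a3 (8.04 ± 0.10) were liver only genes. Ugt1a6a (12.73 ± 0.13 in liver and 12.75 ± 0.26 in kidney) and Ugt1a9 (12.13 ± 0.16 in liver and 12.11 ± 0.34 in kidney) were shared, with the reserve that the transcripts of the Ugt1a locus have their last exons in common. Ugt8a, which makes galactosylceramide, was 3.15 ± 0.16 in liver and 8.41 ± 2.11 in kidney. Of the sulfotransferases Sult1a1 differed by 4.05 ± 0.07, and Sult1c2 by -2.59 ± 0.20. Sult1d1 was shared at 10.78 ± 0.35 in liver and 11.80 ± 0.13 in kidney. Its call toward kidney was lost without male 903 or male 1262 (differences of -0.92 and -0.95) and in females alone (-0.77). The glutathione transferases were split, Gstm3 (5.69 ± 0.09) and Gstm6 (4.86 ± 0.17) toward liver and Gstm5 (-2.62 ± 0.08) and Gsta2 (-1.28 ± 0.24, -0.54 in males alone) toward kidney. Among 13 carboxylesterases, the family of the gene knocked out in this study, 8 were higher in liver and 1 in kidney. Over all genes these shares were 7.5% and 12.7%. Ces2a was 11.86 ± 0.24 in liver and 4.12 ± 0.17 in kidney. Ces1d and Ces1f were high in both organs, 11.43 ± 0.22 in liver and 10.65 ± 0.31 in kidney, and 11.23 ± 0.21 in liver and 10.58 ± 1.36 in kidney. Ces2b, the one member toward kidney, differed by -2.24 ± 0.31.

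**Figure D3:**
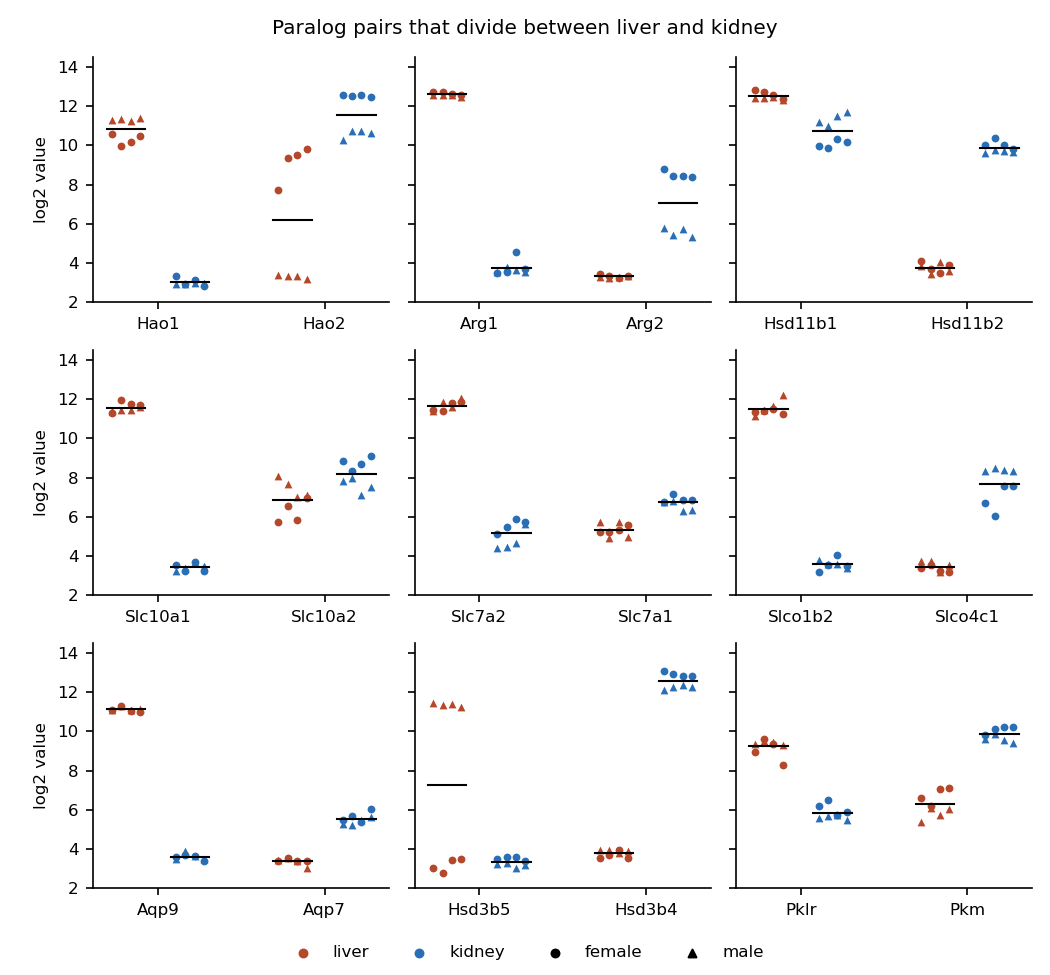
Log2 value in each of the 8 WT livers (red) and 8 WT kidneys (blue) for the 9 paralog pairs in which one member was called toward each organ, with circles for females, triangles for males and bars at the mean. The left gene of each pair is higher in liver and the right gene higher in kidney, and among other genes the sexes lie apart in the livers for Hsd3b5, in the kidneys for Arg2 and in both organs for Hao2.

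The dividing pairs include enzymes that carry out the same step in different organs. Arginase 1 (Arg1), the last enzyme of the urea cycle, ranged from 12.45 to 12.74 in the livers (median 12.57) and from 3.49 to 4.55 in the kidneys (median 3.61). Arginase 2 (Arg2), its mitochondrial form, ranged from 3.22 to 3.47 in the livers (median 3.33) and from 5.33 to 8.79 in the kidneys (median 7.09). No liver overlapped a kidney in either gene. The glycolate oxidase Hao1, which yields glyoxylate, was 10.81 ± 0.56 in liver and 3.01 ± 0.15 in kidney, and Hao2, which acts on longer hydroxyacids, was 6.20 ± 3.15 in liver and 11.56 ± 1.04 in kidney. Hsd11b1, which makes active glucocorticoid, was 12.50 ± 0.19 in liver and 10.71 ± 0.71 in kidney. Hsd11b2, which inactivates glucocorticoid and so guards the mineralocorticoid receptor of the collecting duct, was 3.78 ± 0.24 in liver and 9.88 ± 0.26 in kidney. Hsd11b1 was therefore high in both organs and its pair divided mainly through Hsd11b2. Of the steroid dehydrogenases Hsd3b5 was 7.28 ± 4.37 in liver and 3.36 ± 0.19 in kidney, and Hsd3b4 was 3.80 ± 0.19 in liver and 12.57 ± 0.37 in kidney. The call of Hsd3b5 rests on the male livers and was lost without any 1 of the 4 males, with differences of 3.29 to 3.34. Pyruvate kinase Pklr was 9.24 ± 0.44 in liver and 5.86 ± 0.33 in kidney, and its paralog Pkm 6.28 ± 0.61 in liver and 9.86 ± 0.31 in kidney. Among pairs that did not divide, the alanine glyoxylate aminotransferase Agxt was 10.84 ± 0.30 in liver and 3.36 ± 0.14 in kidney, while Agxt2, the mitochondrial form, was shared at 8.66 ± 0.16 in liver and 7.85 ± 0.27 in kidney. The bile acid CoA synthetase Slc27a5 was 12.24 ± 0.21 in liver and 3.43 ± 0.25 in kidney, beside the shared Slc27a2. The medium-chain ligase Acsm1 was shared, 10.96 ± 0.15 in liver and 10.34 ± 0.33 in kidney, beside the kidney's Acsm2. Of the conjugation enzymes of glycine, Keg1 was 10.81 ± 0.66 in liver and 12.84 ± 0.16 in kidney, both organs standing far above 3.64 in brain.

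**Figure D4:**
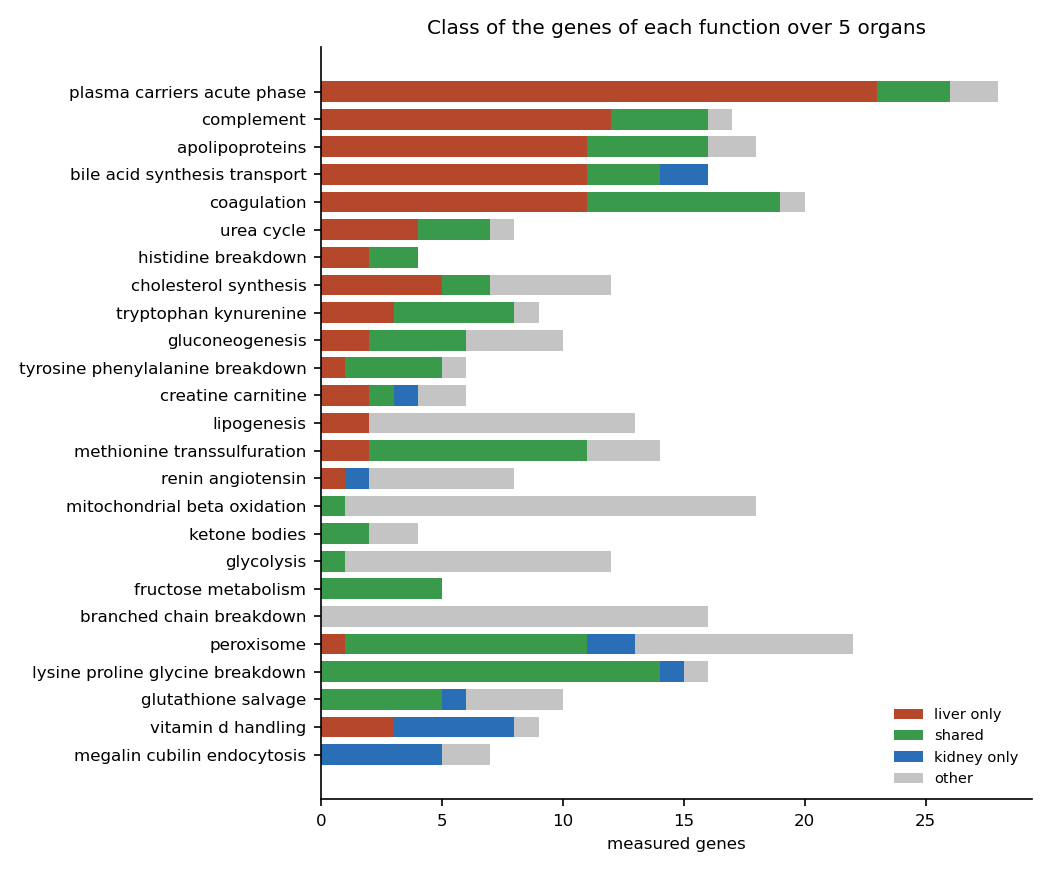
Number of measured genes of each function that were liver only (red), shared (green), kidney only (blue) or none of these (grey) over the 5 WT organs. Plasma carriers have 23 liver only genes of 28, lysine, proline and glycine breakdown 14 shared of 16, and endocytosis by megalin and cubilin 5 kidney only of 7.

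Urea synthesis was cut in the middle. Cps1, which makes carbamoyl phosphate, was 12.69 ± 0.13 in liver and 4.22 ± 0.75 in kidney, and its activator's enzyme Nags was 9.13 ± 0.23 in liver and 3.63 ± 0.21 in kidney. Otc was 12.25 ± 0.16 in liver and 3.31 ± 0.14 in kidney. The next 2 steps were shared, with argininosuccinate synthase Ass1 at 12.30 ± 0.22 in liver and 12.18 ± 0.22 in kidney, and the lyase Asl at 11.30 ± 0.21 in liver and 10.34 ± 0.20 in kidney. The ornithine carrier Slc25a15 was 11.39 ± 0.17 in liver and 10.46 ± 0.07 in kidney. The steps up to citrulline and the last step, Arg1, were thus liver only, and the 2 steps between differed by under 2-fold between the organs. Ass1 and Asl together make arginine from citrulline, a known task of the proximal tubule.

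Many genes of amino acid breakdown were shared, but outside the branched-chain genes most calls between the organs ran toward liver. Higher in liver were 6 of 16 genes of lysine, proline and glycine, 8 of 14 of methionine and cysteine, and 6 of 9 of tryptophan. So were 4 of 4 genes of histidine and 2 of 6 of tyrosine and phenylalanine, against 7.5% of all genes. Toward kidney each of these lists had at most 1 gene. Of 16 genes of lysine, proline and glycine breakdown 14 were shared, against 2.64% of all genes. The lysine enzyme Aass was 11.12 ± 0.07 in liver and 11.16 ± 0.32 in kidney, the pipecolate oxidase Pipox 10.87 ± 0.16 in liver and 10.68 ± 0.37 in kidney, and the proline dehydrogenase Prodh 10.32 ± 0.32 in liver and 10.12 ± 0.18 in kidney. Glycine methyltransferase Gnmt was shared but leaned to liver, 13.04 ± 0.15 in liver and 8.45 ± 0.45 in kidney. The D-amino acid oxidase Dao was a kidney only gene at 3.09 ± 0.21 in liver and 9.54 ± 0.39 in kidney. Of 14 genes of methionine and cysteine 9 were shared, among them Cbs (1.63 ± 0.26, 0.84 in males alone) and Cth (1.09 ± 0.06), while Mat1a was liver only. In tyrosine breakdown the entry enzyme Tat was 11.67 ± 0.32 in liver and 3.62 ± 0.18 in kidney, and the later Hgd and Fah were shared, Fah at 12.22 ± 0.15 in liver and 11.52 ± 0.14 in kidney. Histidine breakdown opened in the same way, with the first enzyme Hal at 11.42 ± 0.21 in liver and 3.18 ± 0.15 in kidney, and the later Uroc1 shared, leaning to liver at 11.02 ± 0.18 in liver and 8.51 ± 0.55 in kidney. In tryptophan breakdown Tdo2 was liver only, and 5 of 9 genes were shared. Kmo (1.17 ± 0.09) and Haao (1.61 ± 0.17) leaned to liver and the aminotransferase Aadat to kidney (-1.59 ± 0.28, -0.73 in males alone). First enzymes of tyrosine, histidine and tryptophan breakdown thus had kidney means of at most 3.62. Of 16 branched-chain amino acid genes 13 were not called, a share near the 79.8% of all genes, and none was shared, liver only or kidney only. The exceptions were the transaminases Bcat1 (-3.98 ± 0.47) and Bcat2 (-1.87 ± 0.09) toward kidney and Bckdhb (1.29 ± 0.07) toward liver.

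In carbohydrate metabolism the organs shared glucose output and fructose use, and divided over glycolysis. Of 10 genes of glucose production 4 were shared, against 2.64% of all genes. Among the 4 were pyruvate carboxylase Pcx at 10.40 ± 0.20 in liver and 10.39 ± 0.26 in kidney, and the phosphate translocator Slc37a4 at 10.51 ± 0.12 in liver and 10.63 ± 0.15 in kidney. The alanine aminotransferases Gpt and Gpt2 were liver only genes, with differences of 4.01 ± 0.16 and 2.70 ± 0.15. The probe set kept for Pck1, the cytosolic carboxykinase that both organs are known to make, was dim in both (3.73 ± 0.61 in liver and 3.63 ± 0.73 in kidney), so no statement on that step is made. All 5 measured fructose genes were shared, including ketohexokinase Khk at 10.97 ± 0.21 in liver and 11.19 ± 0.18 in kidney. Of 12 glycolysis genes 6 were higher in kidney and 1 in liver, against 12.7% and 7.5% of all genes. Lactate dehydrogenase Ldhb was 6.23 ± 0.37 in liver and 12.83 ± 0.07 in kidney, and hexokinase Hk1 was 4.79 ± 0.28 in liver and 8.76 ± 0.26 in kidney. The phosphofructokinase Pfkp was 4.72 ± 0.49 in liver and 8.48 ± 0.22 in kidney. Pklr was the single glycolysis gene toward liver.

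Lipid synthesis leaned to liver, and mitochondrial beta-oxidation was called about as often as genes at large. Of 18 genes of mitochondrial beta-oxidation 15 were not called, against 79.8% of all genes, and Cpt1a, which admits fatty acids to mitochondria, was 11.40 ± 0.20 in liver and 11.43 ± 0.19 in kidney. Its muscle-type paralog Cpt1b was 4.54 ± 0.32 in liver and 7.62 ± 0.35 in kidney. Of 22 peroxisomal genes 10 were shared, against 2.64% of all genes. The bifunctional enzyme Ehhadh, 1 of them, was 10.76 ± 0.23 in liver and 11.28 ± 0.24 in kidney. Of ketone use, Oxct1, which activates ketone bodies and is known to be left out of hepatocytes, was 5.97 ± 0.52 in liver and 12.51 ± 0.09 in kidney. In lipid synthesis 9 of 13 genes and in cholesterol synthesis 7 of 12 were higher in liver, with none toward kidney in either. Over all genes 7.5% were higher in liver and 12.7% higher in kidney. Fatty acid synthase Fasn differed by 1.40 ± 0.17 (0.76 in the KO animals, where it was not called), and farnesyl diphosphate synthase Fdps by 3.35 ± 0.15. The liver fatty acid binding protein Fabp1 was 13.13 ± 0.14 in liver and 4.97 ± 1.42 in kidney, and the heart type Fabp3 differed by -5.62 ± 0.26. Fabp4, the form of fat cells and capillaries, was 7.92 ± 0.81 in liver and 11.30 ± 0.61 in kidney, in kidneys whose adipose means varied as given above.

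Bile acid synthesis and plasma proteins fell to liver almost whole. Of 16 bile acid genes 12 were higher in liver, against 7.5% of all genes. Cyp7a1, the rate-limiting enzyme, ranged from 9.57 to 10.65 in the livers (median 10.10) and from 2.88 to 3.22 in the kidneys (median 3.14). Cyp8b1, which sets cholic acid, differed by 6.73 ± 0.21, and the conjugating enzyme Baat by 6.38 ± 0.24. The bile acid receptor Nr1h4 was shared at 9.22 ± 0.16 in liver and 8.71 ± 0.52 in kidney. All 28 plasma carriers and acute phase proteins, all 17 complement genes, 19 of 20 coagulation genes and 17 of 18 apolipoprotein genes were higher in liver. Some of these were nonetheless well above other organs in kidney. Kininogen (Kng1), the substrate of kallikrein, was shared at 12.38 ± 0.11 in liver and 10.42 ± 0.35 in kidney, the protein C gene Proc at 11.51 ± 0.14 in liver and 9.89 ± 0.64 in kidney, complement factor B (Cfb) at 11.39 ± 0.07 in liver and 9.84 ± 0.32 in kidney, and the sphingosine phosphate carrier Apom at 11.69 ± 0.29 in liver and 10.21 ± 0.43 in kidney.

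Genes of vitamin D handling were called in both directions, 3 of 9 toward liver and 6 toward kidney. Over all genes these shares were 7.5% and 12.7%. Of the vitamin D genes, the first hydroxylase Cyp2r1 was 7.84 ± 0.37 in liver and 3.32 ± 0.28 in kidney. Cyp27a1 was 11.09 ± 0.26 in liver and 7.45 ± 0.31 in kidney. The enzyme that makes the active hormone, Cyp27b1, was 3.34 ± 0.28 in liver and 4.95 ± 1.10 in kidney, the enzyme that degrades it, Cyp24a1, 3.18 ± 0.08 in liver and 9.02 ± 0.40 in kidney, and the receptor Vdr 3.85 ± 0.17 in liver and 9.84 ± 0.29 in kidney. Cubilin (Cubn), which recovers the filtered hormone carrier, was 3.51 ± 0.27 in liver and 11.54 ± 0.22 in kidney, and its partner amnionless (Amn) differed by -7.19 ± 0.08. Of 8 genes of the renin and angiotensin system 5 were not called, 1 was higher in liver and 2 in kidney. Over all genes the shares were 79.8%, 7.5% and 12.7%, and 8 genes are too few to tell the list apart from them. Angiotensinogen (Agt) was 11.26 ± 0.29 in liver and 8.22 ± 0.26 in kidney, and the converting enzyme Ace was 4.23 ± 0.23 in liver and 6.47 ± 0.77 in kidney. Of 6 creatine and carnitine genes 2 were higher in liver and 2 in kidney, against 7.5% and 12.7% of all genes. The creatine methyltransferase Gamt was 10.63 ± 0.23 in liver and 6.91 ± 0.28 in kidney, against the carrier Slc6a8 given above. The last enzyme of carnitine synthesis, Bbox1, was 11.08 ± 0.16 in liver and 4.47 ± 0.52 in kidney, against the carrier Slc22a5.

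The difference between the organs depended on sex for 807 genes. Liver minus kidney was larger in males than in females, or less negative, for 302 genes (1.77%) and smaller for 505 (2.95%), by a limma interaction at an adjusted p under 0.05. The change was at least 1 log2 unit in 442 of the 807. The sexes lay further apart in liver for 345 of them and in kidney for 462. Of 377 family members, 37 (9.81%) were larger in males and 50 (13.3%) smaller. These counts moved with single animals. Leaving out 1 animal gave 162 to 297 genes larger and 300 to 492 smaller, with 162 and 300 without male 901, 201 and 326 without male 903, 175 larger without male 902 and 174 larger without female 1264. With arrays centred on ribosomal protein genes the split was 218 larger and 876 smaller.

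Some genes were separated by sex mainly in liver. Hsd3b5, a male liver steroid reductase, was 11.25, 11.35, 11.41 and 11.43 in the 4 male livers and 2.80, 3.05, 3.46 and 3.49 in the 4 female livers. In the kidneys it was 3.06, 3.18, 3.24 and 3.31 in males and 3.42, 3.48, 3.58 and 3.59 in females. Of the 16 arrays the 4 male livers were high, and the interaction was 8.48 ± 0.19 (adjusted p = 1.69e-09). The sulfotransferase Sult2a2, which acts on steroids and bile acids, was the reverse, 10.10, 10.84, 11.09 and 11.30 in female livers and 3.16, 3.25, 3.32 and 3.65 in male livers, with every kidney at most 3.35. Its interaction was -7.51 ± 0.21 (adjusted p = 6.68e-09). Cyp2b13 was 8.47, 9.57, 10.25 and 10.75 in female livers and at most 3.68 in male livers, an interaction of -6.26 ± 0.34. The complement regulator Susd4 went with male liver, 8.54, 8.63, 9.06 and 9.12, against 4.60, 4.60, 5.26 and 5.37 in female livers, an interaction of 4.003 ± 0.23.

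Others were separated by sex mainly in kidney. The amino acid carrier Slc7a12 was 12.64, 12.71, 12.75 and 12.78 in female kidneys and 5.17, 5.87, 6.42 and 7.02 in male kidneys, while every liver lay at or below 3.38. The interaction was 6.60 ± 0.32 (adjusted p = 1.13e-06). Its relative Slc7a13, the cystine and aspartate carrier of the late proximal tubule, was the mirror image, with male kidneys at 12.78, 12.89, 12.95 and 12.97 and female kidneys at 4.17, 4.78, 5.09 and 6.93. The paralogs thus exchanged places between the sexes of one organ. Cyp2j13 was 9.60, 10.17, 10.40 and 10.75 in male kidneys and 3.17, 3.26, 3.26 and 3.38 in female kidneys, an interaction of -7.10 ± 0.28. Arg2 was 8.41, 8.42, 8.45 and 8.79 in female kidneys against 5.33, 5.42, 5.73 and 5.78 in male kidneys, and the male kidneys still lay above every liver (at most 3.47). Ugt8a was 10.24, 10.36, 10.40 and 10.50 in male kidneys and 6.13, 6.47, 6.52 and 6.68 in female kidneys. The kinesin Kif20b (interaction -4.60 ± 0.19) was 8.13, 8.18, 8.22 and 8.51 in male kidneys, against 3.62, 3.73, 3.87 and 4.14 in female kidneys and at most 3.52 in any liver. The carbonyl reductase Cbr1 differed by sex in both organs, more so in kidney, with female kidneys at 11.26, 11.55, 11.56 and 11.67 and male kidneys at 8.48, 8.51, 8.54 and 8.80. The order of the organs was thus reversed between the sexes. Cbr1 was higher in liver in males by 1.11, and in females liver minus kidney was -1.03. Such a reversal with at least 1 log2 unit each way was seen in 6 genes.

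**Figure D5:**
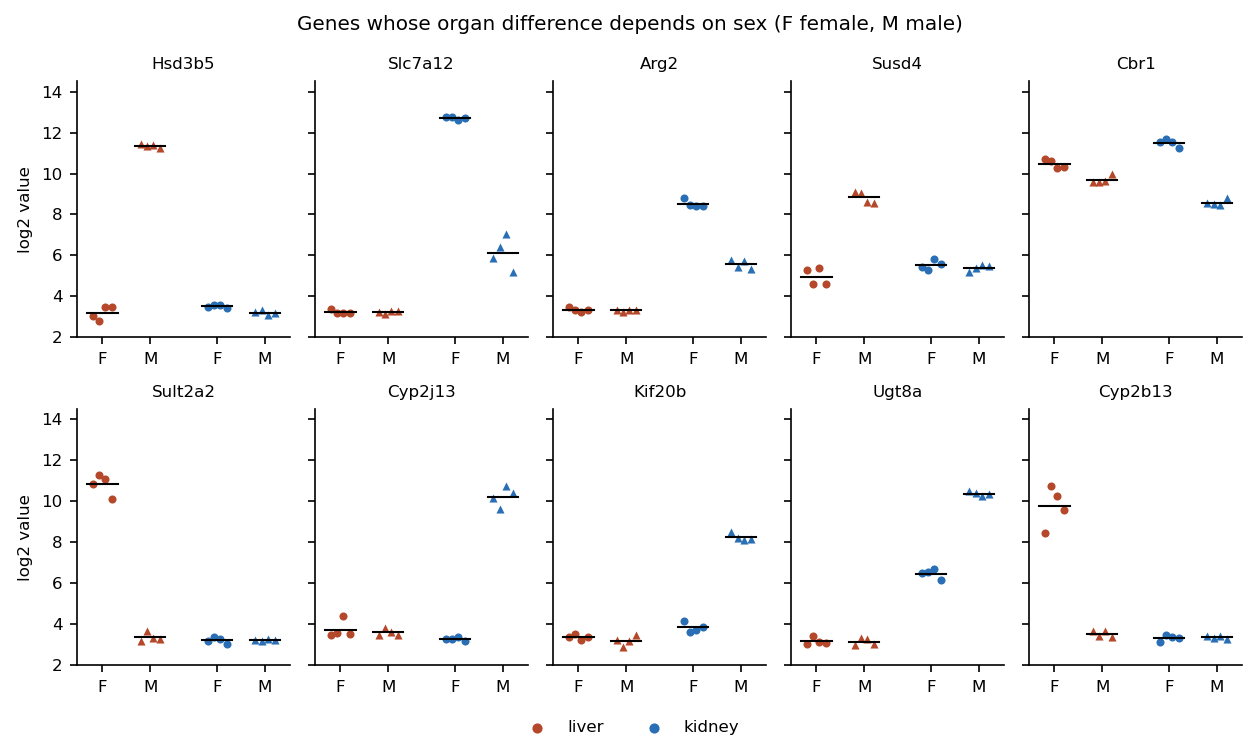
Log2 values of the 5 genes with the smallest adjusted p in each direction of the sex by organ interaction, in WT female (F, circles) and male (M, triangles) livers (red) and kidneys (blue), with bars at the mean of 4. Hsd3b5, Susd4, Sult2a2 and Cyp2b13 separate by sex in liver, and Slc7a12, Arg2, Cyp2j13, Kif20b and Ugt8a in kidney.

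Several shared and liver only genes also differed by sex. The medium-chain ligase Acsm3 averaged 9.82 in male and 9.61 in female livers, but its kidney values were 11.47, 12.19, 12.29 and 12.30 in males and 4.26, 4.83, 5.59 and 5.86 in females. The class of a shared gene came from both sexes together, and Acsm3 had no female kidney above 5.86. Cyp2e1 averaged 12.74 in male and 12.80 in female livers, while its kidney values were 12.07, 12.45, 12.53 and 12.56 in males and 9.19, 9.20, 10.06 and 10.26 in females. Hao2 was 7.71, 9.36, 9.49 and 9.80 in female livers and 3.20, 3.33, 3.37 and 3.38 in male livers, with no overlap. The bile acid and oxysterol hydroxylase Cyp7b1 averaged 11.51 in male and 5.34 in female kidneys, against 11.85 and 9.29 in livers. Cell type markers moved with sex beside these genes. The proximal tubule mean was 10.92 to 11.05 in male kidneys and 10.36 to 10.49 in female kidneys. In 3 other kidney lists the female kidneys lay above the male kidneys, while the collecting duct means overlapped. The thick ascending limb mean was 9.62 to 9.85 in female and 9.04 to 9.47 in male kidneys, the distal convoluted tubule mean 9.18 to 9.36 and 8.74 to 8.89, and the podocyte mean 6.78 to 7.31 and 6.15 to 6.59. The Kupffer cell and macrophage mean was 8.36 to 9.17 in female livers and 7.26 to 8.09 in male livers, and 7 of 10 genes of that list were among the 505. It was 7.26, 7.30 and 7.30 in males 901, 902 and 903 but 8.09 in male 1262, near the lowest female. The endothelial mean was likewise 6.16, 6.18 and 6.18 in the livers of males 901, 902 and 903. It was 7.50 in that of male 1262, within the 6.67 to 7.97 of female livers. The stellate cell and fibroblast mean was 7.22 to 7.67 in female and 6.85 to 7.20 in male livers. The part of these cell types, or of single animals, in the sex differences was not tested.

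In the knockout animals most of the same genes were called toward each organ. Among the 8 KO animals, 1242 genes (7.26%) were higher in liver and 2294 (13.4%) higher in kidney. Of the WT calls, 1154 toward liver (90%) and 2054 toward kidney (94.4%) were called the same way in KO, and 0 were called the opposite way. These make up 92.9% of the KO liver calls and 89.5% of the KO kidney calls. In KO the sex by organ test called 154 genes (0.901%) larger and 239 (1.4%) smaller in males, 393 in all. Of the 807 WT genes 252 (31.2%) were among them with the same sign, and 0 the opposite way. Of the WT changes of at least 1 log2 unit 214 of 442 were called again. In the limma test of a different organ gap between genotypes 0 genes (0%) passed (455 had an unadjusted p under 0.05). Ces1c itself, the targeted gene, was 12.11 to 12.63 in WT livers. In the livers labelled KO it was 9.70 to 10.17 in 7 animals and 12.04 in male 952, which lay just under the WT range. Its change in the organ gap, KO less WT, was -1.97 ± 0.32 (adjusted p = 0.12). Without male 952 the test called 1 gene, Ces1c, at -2.22 ± 0.24 (adjusted p = 0.00101).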

How the data were processed

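RNA of whole organs was measured on 80 Affymetrix arrays, 1 per sample. The authors deposited log2 values for each probe set, made with Affymetrix Expression Console, RMA and Partek, per the submitters' processing notes. Settings, the order of the steps and whether all organs were normalized together are not given in the sources used here. The values ran from 2.23 to 14.06, with array medians between 3.93 and 4.21, and precision is limited by how many arrays an organ has. Of 45141 probe sets, 28898 had 1 gene symbol in the platform annotation, 551 had several, 15588 had none and 104 were controls. Probe sets with several symbols or none were left out. The probe set with the highest mean over the 80 arrays was kept for each of 17097 genes, and 7180 genes had more than 1.

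Differences were fitted with limma 3.58.1 in R 4.3.3 on the 16 WT liver and kidney arrays, with the animal as a fixed block and Benjamini-Hochberg adjustment over all genes. The same fit was made in 8 KO animals. Interactions gave the dependence on sex and on genotype. Shared and divided genes came from limma over the 40 WT arrays with the animal as a random block, whose estimated correlation was 0.069. The scripts were checked on simulated data with known changes. The pairing rests on the animal numbers in the labels. The deviations of liver and kidney from their group means correlated at 0.053 to 0.264 (median 0.111) over genes in the 8 animals, against a median of -0.049 in 24 other pairings within a sex.

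Genes were named by a rule. It took the 12 largest differences each way, the 12 most strongly shared genes that differ by under 2-fold, the 5 smallest adjusted p each way for sex, members of the described lists with the largest differences or the role in question, and both members of listed paralog pairs. The comparison, its 101 gene lists and its pairs were chosen with earlier results of these data known, so none of them is independent evidence. Of 1004 list entries 843 were measured. Alternatives tried were other probe set rules, scalings, filters and models, each sex alone, each animal left out and the KO animals. Promoter windows and their build are RefSeq's.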

Additional observations from a re-analysis of the deposited data

Results flagged for a closer look

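Of 92 sets of 8 arrays examined (46 named genes in each organ), 8 held 1 array far from the other 7, where chance gives about 1 in 20. In 6 of them it was the kidney of female 1264 above the other kidneys, all in genes with large differences toward liver. Its value was 4.02 for Tdo2 (next kidney 3.23), 5.03 for Ambp (3.74), 4.61 for Uox (3.44), 4.05 for Mat1a (3.19), 5.53 for Hpx (4.17) and 5.21 for Ces1c (3.51). That kidney also had the highest hepatocyte mean, and its part in these values was not tested. Spink1 was lowest in the kidney of male 902 at 11.71 (next 12.11). Cyp2j13 was highest in the liver of female 1264 at 4.40 (next 3.80).

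The organ difference depended on sex, by the interaction test, in the 10 genes with the smallest adjusted p. Liver minus kidney in males less that in females was 8.48 for Hsd3b5, 6.60 for Slc7a12, 4.003 for Susd4, 2.91 for Arg2 and 2.14 for Cbr1. It was -7.51 for Sult2a2, -7.10 for Cyp2j13, -6.26 for Cyp2b13, -4.60 for Kif20b and -3.95 for Ugt8a. In each of the 10 genes the 4 males and 4 females of at least 1 organ did not overlap. The genes were picked by their adjusted p for sex, so that separation follows from the choice and is no added evidence.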

How the results depend on the processing

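Leaving out each animal in turn gave 1248 to 1303 genes higher in liver, 2160 to 2229 higher in kidney, 31 to 35 dividing families, 446 to 457 shared, 563 to 577 liver only and 474 to 490 kidney only genes. Other probe set rules, scalings, filters and models gave 900 to 1825, 1524 to 3139 and 25 to 36 for the first 3 counts. Without the replicate block, that is without pairing liver and kidney by animal, the counts were 1282 toward liver, 2177 toward kidney and 32 dividing families, with 301 and 474 sex differences. Shared, liver only and kidney only genes were then 449, 572 and 482, the KO counts 1240 and 2293, and the genotype count 0, so the pairing moved no summary count by 1.5 times. A minimum of 2 log2 units left 228 shared, 345 liver only and 273 kidney only genes, and leaving lung out raised shared genes to 703. Without the heart of male 903, an alternative chosen after seeing the data, they were 456, 568 and 481. The genes larger in males numbered 162 to 297 and the smaller ones 300 to 492 on leaving out 1 animal, and 154 and 239 in KO animals. Centring on 62 ribosomal protein genes, whose liver minus kidney was -0.155, gave 876 smaller in males. Leaving out KO male 952 turned the genotype count from 0 to 1. In females alone the sign turned for Cbr1 (-1.03), Cyp2j13 (0.46) and Hsd3b5 (-0.32), and in males alone for Acsm3 (-2.24). Single named genes kept direction and call in 4308 of their alternatives, lost the call in 50 (20 of them in a test against a 2-fold null, 9 in males alone, namely Aadat, Cbs, Cyp2b13, Cyp2c39, Cyp2e1, Cyp7b1, Gsta2, Slc10a2 and Sult2a2) and gained it in 21. In females alone the call was lost for Kif20b, Slc47a1 and Sult1d1. Slc7a1 lost it with the mean of its probe sets and with a further quantile normalization. Cyp2j13 and Hsd3b5 lost it without male 901, 902, 903 or 1262, and Sult1d1 without 903 or 1262. Susd4 gained it without 936, 1264 or 1265. Asl gained it without 876 and Ugt3a2 without 1264. Levels near the array medians, about 4.04, limit how low a gene can be read.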
